A study of Mus musculus with 15 samples.

Results

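DNA replication and G1/S genes are described here across 15 RNA-seq libraries of whole mouse liver. The 42 genes were taken by symbol from the deposited count tables, which list 24499 symbols, and all 42 were found. They were chosen by function and not by level, but with earlier results of these data known. All 42 passed the filter on low counts that left 14778 genes for testing. Livers came from adult male C57BL/6 mice in a model of acute alcoholic injury on top of chronic injury. Chronic injury was made with carbon tetrachloride (CCl4), a solvent that becomes toxic once hepatocytes metabolise it, injected at 0.2 ml/kg 2 times a week for 6 weeks. Day 0 follows that phase. For the next 3 weeks ethanol went in through a gastric tube, with a top dose of 25 g/kg/day, and animals of the CCl4 arms kept receiving CCl4 at 0.5 of the first dose. The arm without CCl4 is called OO in the labels, which do not spell the name out. The groups are OO at day 0 (libraries 1 and 2), CCl4 at day 0 (libraries 3 and 4), OO with chow at day 20 (library 12), OO with ethanol at day 20 (libraries 13, 14 and 15), CCl4 with chow at day 20 (libraries 16 and 17) and CCl4 with ethanol at day 20 (libraries 18, 19 and 20). A separate substudy gives OO with chow (library 5) and OO with ethanol (library 6) at day 23. Labels of libraries 12, 13, 14 and 15 name OO again beside the later chow or ethanol, and those of libraries 5 and 6 do not. Labels of the ethanol arms also name a high-fat diet, so ethanol and diet cannot be told apart. All CCl4 comparisons at day 20 carry both the 6 weeks of pretreatment and the later lower doses.

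Before a cell copies its DNA, the origin recognition complex, Cdc6 and Cdt1 load the ring of Mcm2 to Mcm7 onto origins, a step called licensing. At the start of S phase, cyclin E with its kinase and the Dbf4-dependent kinase turn the loaded ring into an active helicase by joining it to Cdc45 and the GINS complex. Polymerases, the sliding clamp Pcna with its loader, the enzymes of nucleotide supply and the histone chaperones then work at the fork, and transcription factors of the E2F family switch on many of these genes late in G1. Adult hepatocytes are mostly quiescent and re-enter the cell cycle after loss of liver tissue. The 42 genes cover licensing (10), helicase activation (6), the clamp and its loader (6), polymerases and primase (5), Okazaki fragment joining and single-stranded DNA binding (3), nucleotide supply (5), the G1/S switch (4) and chromatin assembly (3).

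Gene counts ran from 10347844 to 28843258 per library. Levels are given in CPM, the TMM-scaled share of a library's gene counts expressed per 1000000, and changes as log2 ratios with their standard error (SE) from edgeR's quasi-likelihood fit. Genes are called when the Benjamini-Hochberg adjusted p over all 14778 genes is under 0.05. The labels do not say that libraries of a group came from separate animals, so a p-value here rests on the spread between libraries, which may be technical. Groups of 1 library are assumed to vary like the others, and where OO chow is the control it is the mean of the estimates from libraries 12 and 5. Libraries 6 and 12 stood apart in holding transcripts of the exocrine pancreas, with a sum over 12 marker genes of 161 CPM in each against at most 2.18 CPM elsewhere. Markers of hepatocytes summed to between 76317 and 114630 CPM in every library, as fits the liver label. In bulk RNA, more cells of a dividing kind and more RNA per cell cannot be told apart.

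**Figure D1:**
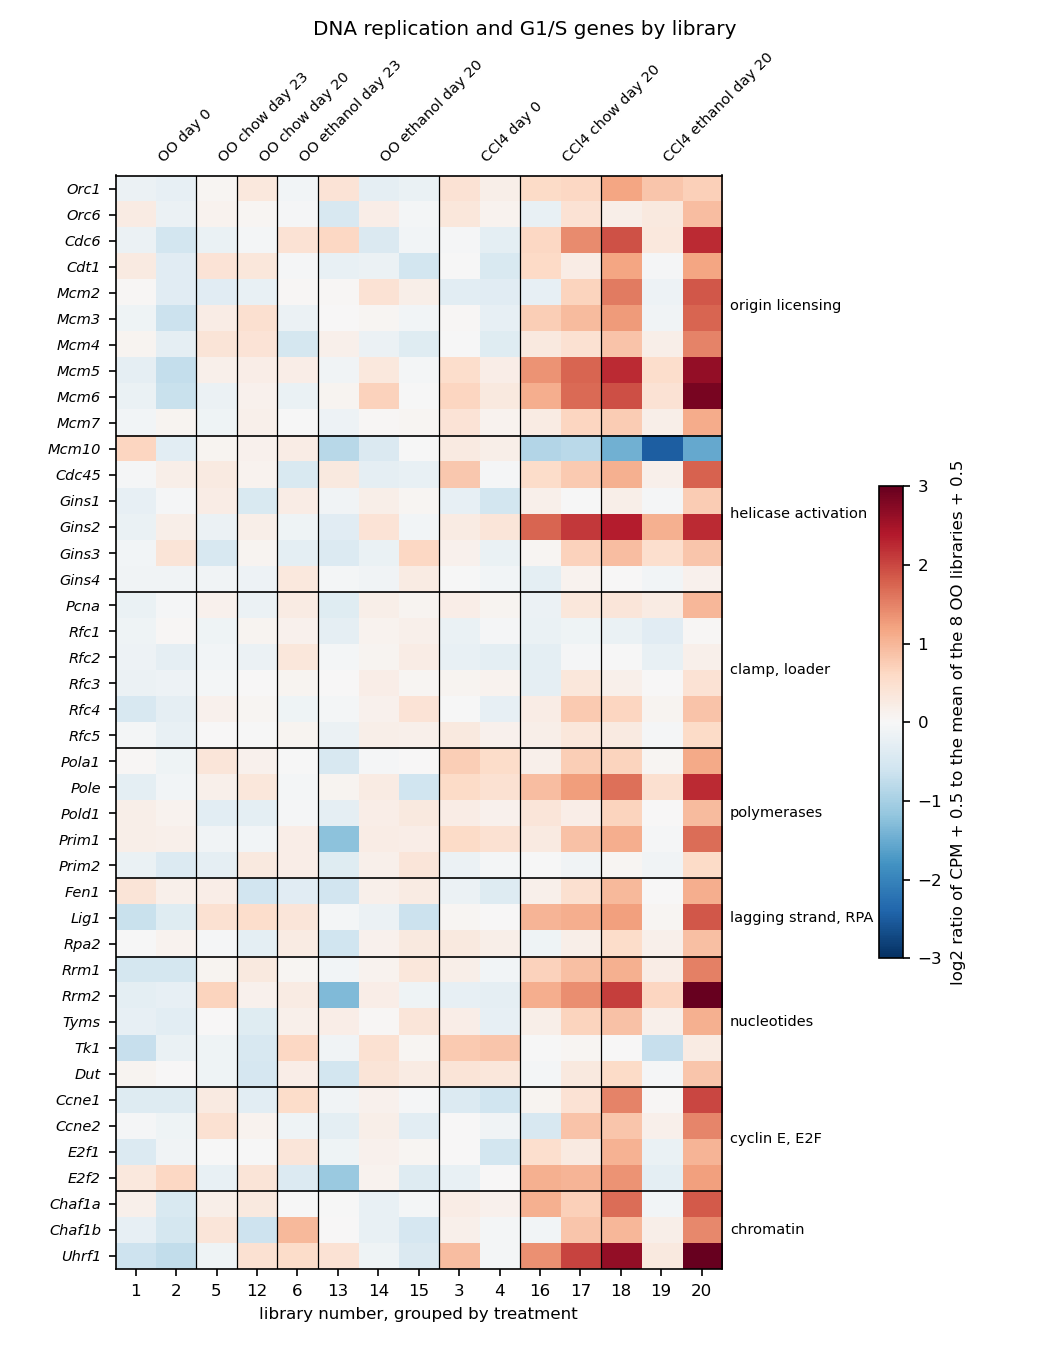
Each row is 1 of the 42 genes, ordered by role, and each column 1 library, with colour giving the log2 ratio of CPM + 0.5 to the mean of the 8 OO libraries + 0.5. Libraries 18 and 20 are the reddest columns, library 19 of the same group is close to the OO libraries with a median of 0.06, and the row of Mcm10 is blue, below the OO mean, in all 3.

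CCl4 livers under ethanol at day 20 held more mRNA of much of the replication machinery than OO livers under ethanol. Of the 42 genes, 20 were called higher and 1, Mcm10, was called lower. Over all genes tested, 12.7% were called higher and 11% lower in this comparison. The estimate was positive for 37 of 42 genes, with a median log2 change of 0.92, against −0.04 over all genes tested. By role, the calls took in 8 of 10 licensing genes, 3 of 3 chromatin assembly genes, 2 of 4 genes of the G1/S switch, 2 of 5 polymerase and primase genes, 2 of 5 genes of nucleotide supply, 1 of 3 Okazaki and single-strand genes and, of 6 helicase activation genes, 2 higher and 1 lower. None of the 6 clamp and loader genes was called by edgeR, and Pcna alone had an unadjusted p under 0.05. The libraries of the groups did not overlap for 12 genes on the higher side and 1 on the lower side. Among all genes tested 18.8% and 17.4% were separated in this way. Gins2, Lig1, Mcm5, Mcm10, Pole and Rrm2 were called in each of the 14 alternative fits as well. The number called depended on single libraries: it was 8 without library 18 or without library 20, 9 without library 14 or without library 15, and 30 without library 19.

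**Figure D2:**
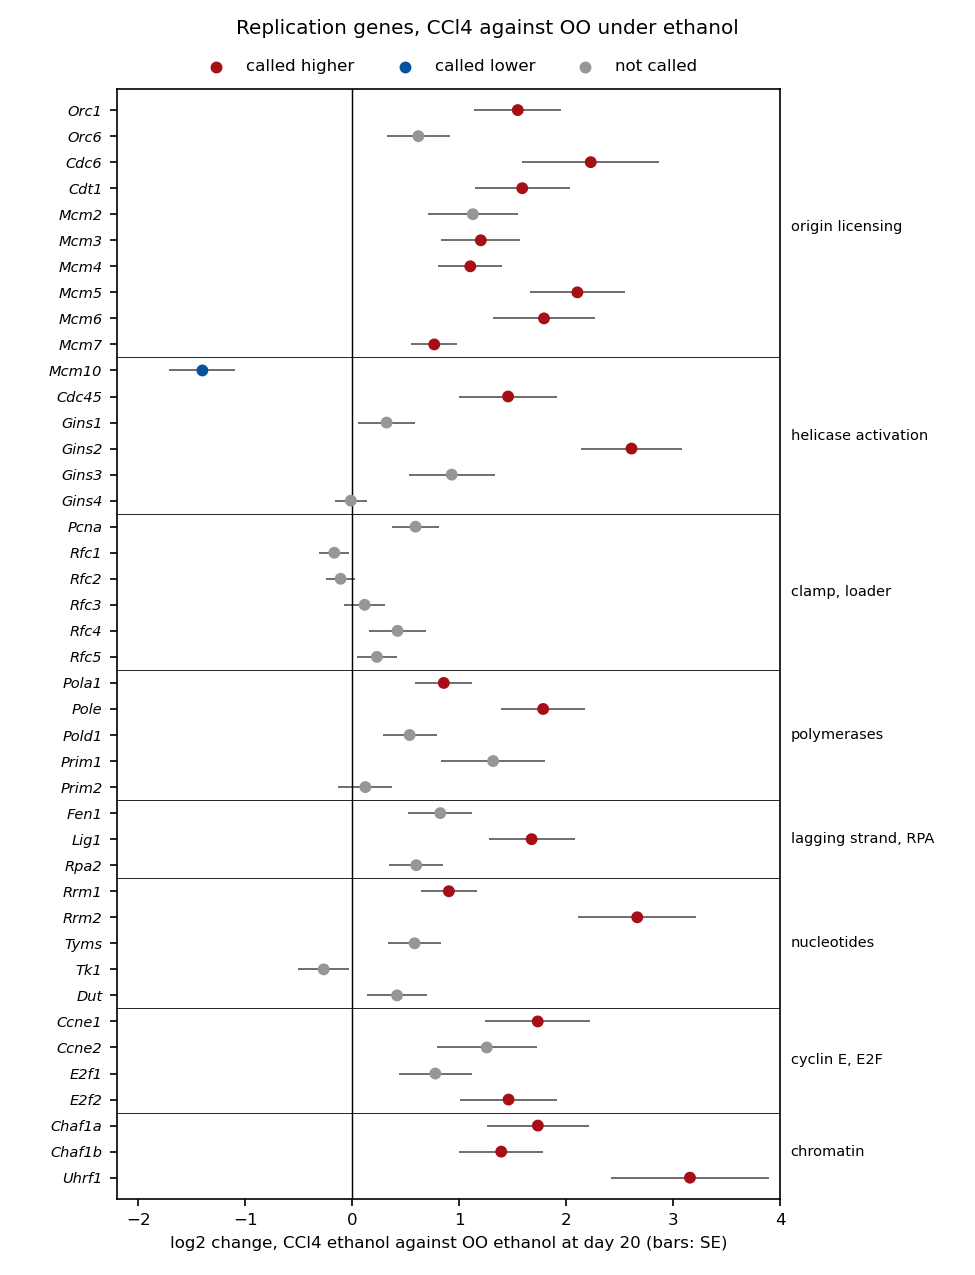
Points give the log2 change of each of the 42 genes between CCl4 with ethanol (n = 3) and OO with ethanol (n = 3) at day 20 and bars its SE, with red for called higher, blue for called lower and grey for not called. Uhrf1 lies farthest right at 3.16, Mcm10 farthest left at −1.40, and the clamp loader genes sit near 0.

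The upstream sequence is shown for Mcm6, Mcm5, Uhrf1, Rrm2 and Mcm10 as examples, because a site for E2F factors is the usual feature shared by genes of this class. RefSeq promoters on GRCm38.p6 were at hand for 34 of the 42 genes, and the 250 bases before the start are printed 5′ to 3′ on the gene's strand. Capitals mark GCGGGAA or GCGCGAA on either strand. The regions are chr1:128359706-128359955, minus strand for Mcm6; chr8:75109259-75109508, plus strand for Mcm5; chr17:56303087-56303336, plus strand for Uhrf1; chr12:24708004-24708253, plus strand for Rrm2; and chr2:5012792-5013041, minus strand for Mcm10.
Mcm6: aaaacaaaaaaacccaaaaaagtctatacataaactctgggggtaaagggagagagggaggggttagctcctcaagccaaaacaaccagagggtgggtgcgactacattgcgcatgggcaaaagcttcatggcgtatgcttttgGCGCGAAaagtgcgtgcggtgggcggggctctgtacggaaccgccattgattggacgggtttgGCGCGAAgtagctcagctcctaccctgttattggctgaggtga
Mcm5: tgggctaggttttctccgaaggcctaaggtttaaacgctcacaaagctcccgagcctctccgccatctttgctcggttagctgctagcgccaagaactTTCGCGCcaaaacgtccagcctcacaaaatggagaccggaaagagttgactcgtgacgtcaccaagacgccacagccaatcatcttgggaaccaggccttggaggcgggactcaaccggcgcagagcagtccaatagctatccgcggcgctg
Uhrf1: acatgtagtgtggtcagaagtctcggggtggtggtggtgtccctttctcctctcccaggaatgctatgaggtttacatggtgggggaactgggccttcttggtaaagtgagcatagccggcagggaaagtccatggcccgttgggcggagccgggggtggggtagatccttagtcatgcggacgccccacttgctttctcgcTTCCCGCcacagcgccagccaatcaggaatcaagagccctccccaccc
Rrm2: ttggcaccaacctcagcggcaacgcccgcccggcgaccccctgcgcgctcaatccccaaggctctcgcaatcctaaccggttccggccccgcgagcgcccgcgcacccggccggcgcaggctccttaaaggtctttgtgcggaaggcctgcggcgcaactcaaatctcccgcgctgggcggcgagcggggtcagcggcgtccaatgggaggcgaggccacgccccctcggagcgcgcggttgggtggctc
Mcm10: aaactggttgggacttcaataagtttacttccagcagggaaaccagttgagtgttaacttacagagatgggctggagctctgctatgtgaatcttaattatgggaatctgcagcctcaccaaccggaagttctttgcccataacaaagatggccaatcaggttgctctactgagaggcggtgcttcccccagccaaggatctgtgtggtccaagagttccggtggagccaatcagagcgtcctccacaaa
For Uhrf1 the first of 2 listed starts is shown. Mcm6 held 2 matches and Mcm5 and Uhrf1 1 each, while the windows of Rrm2 and Mcm10 held none. Of the other genes called under ethanol in every alternative fit, Lig1 had no match at any listed start, and Gins2 and Pole had no promoter at hand. GCGGGAA or GCGCGAA occurred in 15 of the 34 genes (44.1%), against 5.74% of 27025 genes with a promoter from the same source. Among genes called higher under ethanol, 10 of the 17 with a promoter had a match, and among the other members 5 of 17. CCAAT, searched on both strands, occurred in 61.8% of the members and 37.5% of all genes, and TTTGAA in 14.7% and 18.3%. A match describes letters in the window and not a bound site.

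Among the licensing genes, Mcm5 (chr8:75109569-75128439, plus strand, mm10, GENCODE M21), a subunit of the helicase ring, had the smallest adjusted p. Its levels were 3.07, 4.23 and 3.19 CPM in OO ethanol libraries 13, 14 and 15, and 17.6, 4.97 and 23.3 CPM in CCl4 ethanol libraries 18, 19 and 20. The groups did not overlap, although library 19 lay close to the highest OO ethanol library. Mcm5 rose 4.3-fold, a log2 change of 2.11 ± 0.45 (SE), adjusted p = 0.00602. Mcm6, another ring subunit, stood at 8.82, 13.7 and 8.23 CPM in the OO ethanol libraries and at 33.3, 11.4 and 63.5 CPM in the CCl4 ethanol libraries. Library 19 fell within the OO ethanol range here, and the log2 change was 1.79 ± 0.48 (SE, adjusted p = 0.0192). Mcm2, the ring subunit that also carries histones, was at 7.23, 9.66 and 8.06 CPM against 21.6, 6.31 and 27.1 CPM. With library 19 below all 3 OO ethanol libraries it was not called, at 1.13 ± 0.42 (SE, adjusted p = 0.0769). Mcm3, Mcm4 and Mcm7 were called higher with log2 changes of 1.20, 1.10 and 0.77, so 5 of the 6 ring subunits passed.

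The loaders of the ring were present at low levels. Cdc6, which recruits the ring to origins, was at 1.19, 0.313 and 0.531 CPM in the OO ethanol libraries and at 3.59, 0.858 and 4.63 CPM in the CCl4 ethanol libraries. Libraries 18 and 20 lay above every OO library (0.24 to 1.19 CPM) and library 19 did not. The log2 change was 2.23 ± 0.64 (SE, adjusted p = 0.0262). Cdt1, its partner in loading, was at 0.892, 0.94 and 0.62 CPM and 3.21, 1.1 and 3.2 CPM. The groups were separate, and Cdt1 rose by 1.59 ± 0.44 (SE) on the log2 scale, adjusted p = 0.0234. Library 19 was still inside the range of all 8 OO libraries for Cdt1, 0.62 to 1.69 CPM. Orc1, the subunit of the origin recognition complex that varies with the cell cycle in mammals, was at 0.793, 0.313 and 0.354 CPM and 1.73, 1.23 and 1.09 CPM. For Orc1 library 18, not 20, was the highest, and its change was 1.55 ± 0.41 (SE, adjusted p = 0.018). All 7 CCl4 libraries had Orc1 levels of 0.593 CPM or more, while the 8 OO libraries spanned 0.313 to 0.793 CPM. Orc6 was not called, at 0.62 ± 0.29 (SE, adjusted p = 0.155).

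Helicase activation held both the gene with the smallest adjusted p of all members and Mcm10, the 1 member called lower. Gins2 (chr8:120578633-120589304, minus strand), a subunit of the GINS complex, was at 0.297, 0.835 and 0.443 CPM in the OO ethanol libraries, from 3, 16 and 5 reads. CCl4 ethanol libraries held 4.6, 1.59 and 4.21 CPM, from 109, 26 and 50 reads. Every CCl4 library of day 20 lay above all 8 OO libraries, which spanned 0.297 to 0.835 CPM. Gins2 rose 6.11-fold under ethanol, 2.61 ± 0.47 (SE) on the log2 scale, adjusted p = 0.00245. Of its annotated exon bases 67.3% are shared with Gse1 on the opposite strand, and the use of strand in counting is not given. Gse1 itself changed by −0.21 in the same comparison with an adjusted p of 0.643. The other 3 GINS genes were not called, with log2 changes of 0.32 for Gins1, 0.93 for Gins3 and -0.01 for Gins4. Cdc45, which joins GINS and the ring in the active helicase, was at 1.88, 1.1 and 1.15 CPM against 3.59, 1.66 and 6.06 CPM. Library 19 lay within the OO ethanol range, and Cdc45 was called higher at 1.46 ± 0.45 (SE, adjusted p = 0.0377).

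Mcm10 (chr2:4989714-5012791, minus strand) helps to activate the helicase and to bring in polymerase alpha, but is not a subunit of the ring. Its level was 67.8 and 34.4 CPM in OO day 0, 51.5 and 48.8 CPM in CCl4 day 0 and 45.4, 49.9 and 47.2 CPM in libraries 5, 6 and 12. OO ethanol libraries 13, 14 and 15 held 23.9, 31.8 and 42.7 CPM, CCl4 chow libraries 22.97 and 24.4 CPM and CCl4 ethanol libraries 15.4, 7.36 and 14.5 CPM. The CCl4 ethanol libraries were thus the lowest of the 15, and library 19, low for most members, was the lowest of all. Mcm10 was called lower against OO ethanol at -1.40 ± 0.31 (SE, adjusted p = 0.00745) on the log2 scale, against OO chow at -1.90 ± 0.33 (SE, adjusted p = 0.00487) and against CCl4 day 0 at -2.01 ± 0.33 (SE, adjusted p = 0.00172). These comparisons share the CCl4 ethanol libraries. Mcm10 was called in each of them under every alternative fit, and no other annotated gene overlaps its exons. Per kilobase of exon it ranked 3 of the 42 members in OO day 0, at 6.65 CPM per kilobase, and 27 of 42 in CCl4 ethanol, at 1.61 CPM per kilobase. Pcna ranked 1 in both groups, at 10.7 and 17.4 CPM per kilobase.

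Among the enzymes that copy DNA, Pole, the catalytic subunit of the leading-strand polymerase epsilon, was at 4.16, 4.7 and 2.39 CPM in the OO ethanol libraries. It reached 13.3, 5.64 and 20.5 CPM in the CCl4 ethanol libraries, with no overlap, a log2 rise of 1.78 ± 0.40 (SE, adjusted p = 0.00766). Pola1, the catalytic subunit of polymerase alpha, was called higher at 0.86, while Pold1, of the lagging-strand polymerase delta, and the primase genes Prim1 and Prim2 were not, at 0.54, 1.32 and 0.12. Lig1, the ligase that seals Okazaki fragments, was at 2.77, 2.51 and 1.68 CPM against 7.51, 3.07 and 11.95 CPM. Its lowest CCl4 ethanol library was above its highest OO ethanol library, and the log2 change was 1.68 ± 0.40 (SE, adjusted p = 0.0114). Over all 8 OO libraries Lig1 spanned 1.65 to 4.43 CPM, so library 19 was not above that range. Fen1, the flap nuclease of the same step, was not called at 0.82 (adjusted p = 0.0688), and 78.8% of its exon bases are shared with another annotated transcript, Gm10143.

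Pcna, the sliding clamp and a common marker of dividing cells, was among the most abundant of these transcripts. It was at 21.5, 31.5 and 29.6 CPM in the OO ethanol libraries and 36.2, 33.04 and 56.1 CPM in the CCl4 ethanol libraries. The groups did not overlap, but only library 20 was far from the rest, and the change of 0.59 ± 0.22 (SE) had an adjusted p of 0.0698. The loader genes Rfc1 to Rfc5 changed by between -0.17 and 0.42 on the log2 scale, and none was called. Rfc2 shares 15.1% of its exon bases with Lat2 on the opposite strand, whose log2 change was 2.65 with an adjusted p of 0.00162.

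Nucleotide supply was uneven. Rrm2 (chr12:24708241-24714146, plus strand), the small subunit of ribonucleotide reductase whose level follows S phase, was at 0.991, 3.76 and 2.92 CPM in the OO ethanol libraries and 15.3, 5.33 and 30.2 CPM in the CCl4 ethanol libraries. The OO ethanol and CCl4 ethanol libraries did not overlap, and library 20 was more than 5 times library 19. Over all 8 OO libraries Rrm2 spanned 0.991 to 5.46 CPM, so library 19 was not above that range. Rrm2 rose 6.34-fold, 2.67 ± 0.55 (SE) on the log2 scale, adjusted p = 0.00532. Rrm1, the large subunit, rose by 0.90 ± 0.26 (SE, adjusted p = 0.0289). Tyms, which makes thymidylate, was at 7.83, 7.0 and 8.77 CPM against 12.95, 7.54 and 14.8 CPM and was not called, at 0.58 ± 0.25 (SE, adjusted p = 0.114). Tk1, the salvage kinase for thymidine, was at 15.7, 23.6 and 17.7 CPM against 17.2, 10.3 and 20.2 CPM. The Tk1 groups overlapped and the estimate was -0.27 ± 0.24 (SE, adjusted p = 0.458). Dut was not called, at 0.42.

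At the G1/S switch, Ccne1, which encodes cyclin E1, was at 0.892, 1.15 and 0.974 CPM in the OO ethanol libraries and 3.71, 1.04 and 5.56 CPM in the CCl4 ethanol libraries. Libraries 18 and 20 were above all OO libraries (0.639 to 1.7 CPM) and library 19 was inside their range. Ccne1 was called higher at 1.73 ± 0.49 (SE, adjusted p = 0.0248). Ccne2, for cyclin E2, was at 1.09, 1.67 and 1.06 CPM against 2.95, 1.66 and 4.88 CPM and was not called, at 1.26 ± 0.47 (SE, adjusted p = 0.0747). E2f1, an activator of the gene class itself, was at 2.68, 3.29 and 3.1 CPM against 6.62, 2.51 and 6.48 CPM, with library 19 the lowest of the 6. E2f1 was not called, at 0.78 ± 0.34 (SE, adjusted p = 0.123), whereas E2f2 was, at 1.46 ± 0.45 (SE, adjusted p = 0.0367).

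Chromatin assembly held the largest change. Uhrf1, which brings the maintenance DNA methyltransferase to newly copied DNA, was at 1.88, 1.1 and 0.797 CPM in the OO ethanol libraries and 10.4, 1.66 and 21.5 CPM in the CCl4 ethanol libraries. Library 19 lay below OO library 13, while library 20 was more than 10 times it. Uhrf1 rose 8.93-fold, 3.16 ± 0.74 (SE) on the log2 scale, adjusted p = 0.0103. Chaf1a and Chaf1b, subunits of the histone chaperone that Pcna recruits, rose by 1.74 and 1.39. Chaf1a shares 52.5% of its exon bases with Ubxn6 on the opposite strand, whose log2 change was −0.44.

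**Figure D3:**
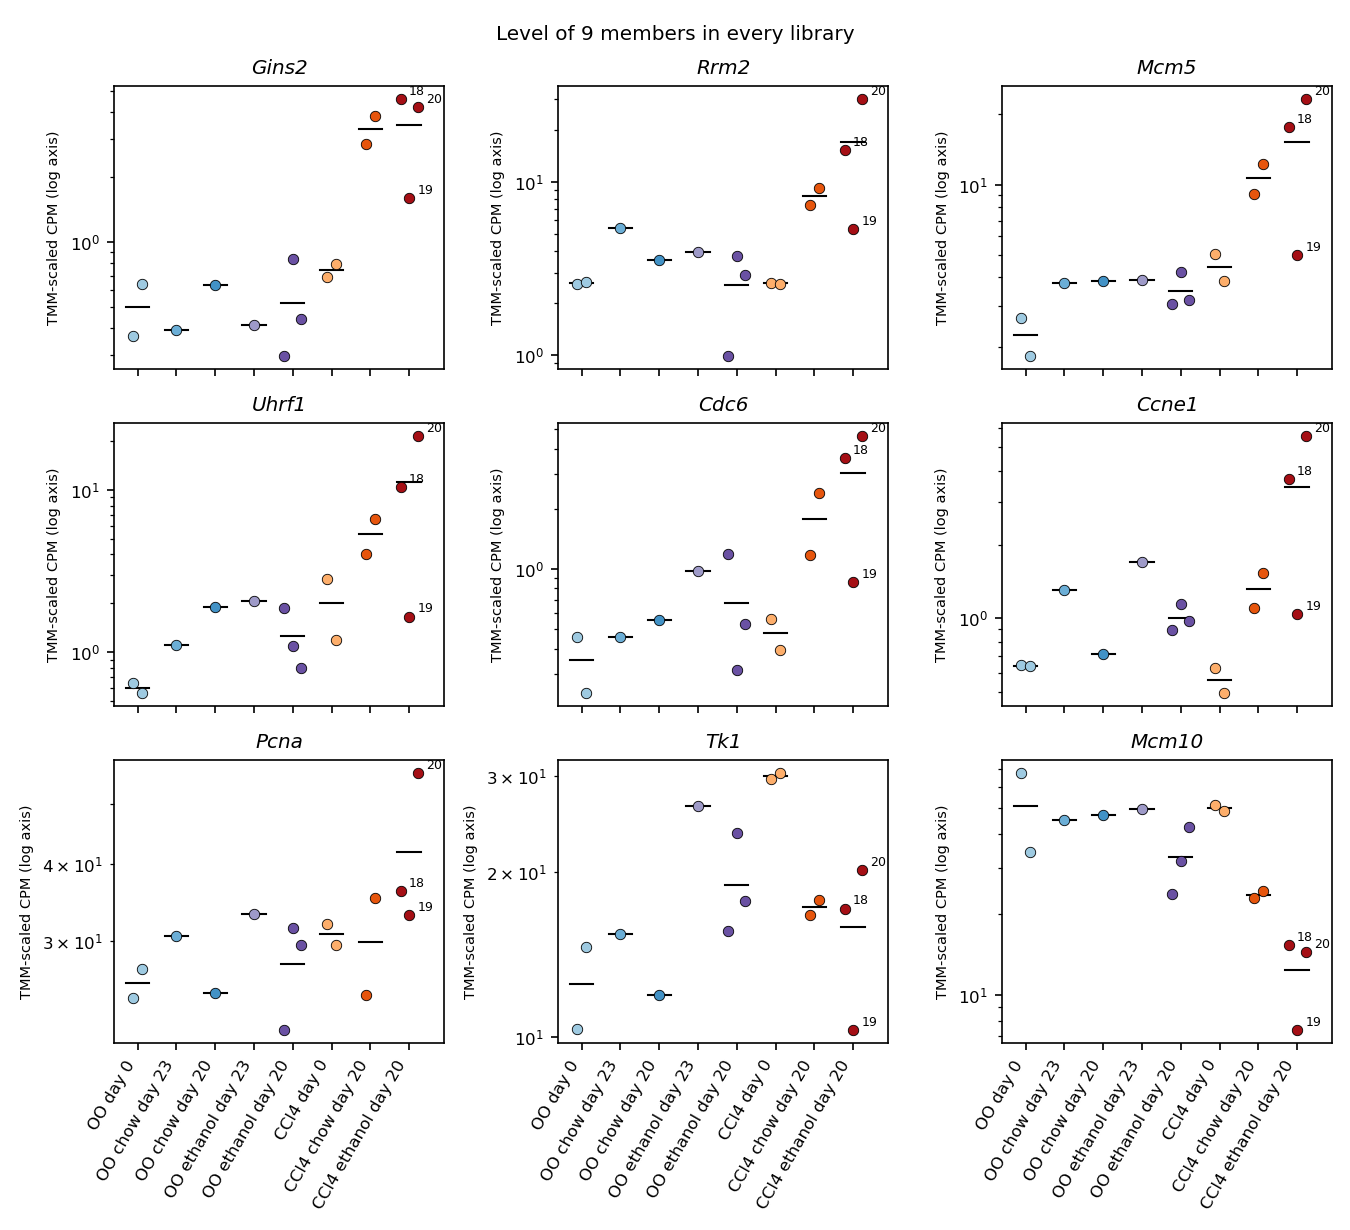
The TMM-scaled CPM of 9 members is plotted on a log axis, 1 dot per library in 8 groups, with a black line at the group mean. Library 19 is the lowest dot of the CCl4 ethanol group in each panel, and in the panel of Mcm10 that group is the lowest of the 8.

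The 3 CCl4 ethanol libraries did not share 1 level. Library 19 was the lowest of the 3 for 40 of the 42 members, and library 20 the highest for 35. Over all genes tested library 19 was the lowest for 39.96%. Against the 8 OO libraries, 33 members in library 18 and 37 in library 20 lay above the highest OO value, but 6 in library 19. Over all genes the shares above the highest OO value were 19.4% in library 18, 16.0% in library 19 and 20.8% in library 20. The median member was at a log2 ratio to the OO mean of 0.95 in library 18, 0.06 in library 19 and 1.124 in library 20. Only Orc1, Mcm5, Mcm7, Gins2 and Pole were above all OO libraries in all 3, and 28 members were so in libraries 18 and 20 but not in 19. Library 19 was not low in the markers of macrophages, at 2125 CPM over 11 genes against 2310 and 1910 in libraries 18 and 20, or in Spp1, which made up most of the summed cholangiocyte markers, at 553 CPM against 372 and 583. Its stellate cell and fibroblast markers were the lowest of the 3, at 1255 CPM over 10 genes against 1808 and 1623, and so were its neutrophil markers, at 51.9 CPM over 6 genes against 86.6 and 138. Whether these amounts take part in the difference was not tested.

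The same genes were read in the other 9 libraries, those of day 0, OO libraries 5, 6 and 12, and CCl4 chow libraries 16 and 17. Mcm5 was at 2.66 and 1.84 CPM in OO day 0, 5.01 and 3.86 CPM in CCl4 day 0, 3.77, 3.89 and 3.87 CPM in libraries 5, 6 and 12, and 9.14 and 12.3 CPM in CCl4 chow. Mcm6 was at 7.16 and 5.11 CPM in OO day 0, 13.3 and 10.4 CPM in CCl4 day 0, 7.35, 7.24 and 9.17 CPM in libraries 5, 6 and 12, and 18.2 and 28.3 CPM in CCl4 chow. Both CCl4 chow libraries lay above all 8 OO libraries for these 2 ring subunits. Mcm2 was at 7.25 and 5.43 CPM in OO day 0, 5.51 and 5.44 CPM in CCl4 day 0, 5.46, 7.17 and 6.01 CPM in libraries 5, 6 and 12, and 5.85 and 11.5 CPM in CCl4 chow. Cdc6 was at 0.459 and 0.24 CPM in OO day 0, 0.564 and 0.396 CPM in CCl4 day 0, 0.455, 0.981 and 0.553 CPM in libraries 5, 6 and 12, and 1.17 and 2.39 CPM in CCl4 chow. For Mcm2 and Cdc6 library 17 was above all OO libraries and library 16 was not. Cdt1 was at 1.47 and 0.798 CPM in OO day 0, 1.13 and 0.692 CPM in CCl4 day 0, 1.69, 1.09 and 1.58 CPM in libraries 5, 6 and 12, and 1.97 and 1.39 CPM in CCl4 chow. Orc1 was at 0.367 and 0.319 CPM in OO day 0, 0.814 and 0.593 CPM in CCl4 day 0, 0.52, 0.415 and 0.711 CPM in libraries 5, 6 and 12, and 0.951 and 0.996 CPM in CCl4 chow. Cdt1 went above the OO range in library 16 alone, and Orc1 in both libraries. Gins2 was at 0.367 and 0.639 CPM in OO day 0, 0.689 and 0.791 CPM in CCl4 day 0, 0.39, 0.415 and 0.632 CPM in libraries 5, 6 and 12, and 2.85 and 3.85 CPM in CCl4 chow. Cdc45 was at 1.38 and 1.68 CPM in OO day 0, 2.88 and 1.38 CPM in CCl4 day 0, 1.82, 0.905 and 1.58 CPM in libraries 5, 6 and 12, and 2.34 and 2.85 CPM in CCl4 chow. These helicase genes were above all OO libraries in both CCl4 chow libraries.

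Among the genes of the fork, the polymerase subunit Pole was above all 8 OO libraries in each of the 7 CCl4 libraries, those of day 0 included. Pole was at 3.12 and 3.67 CPM in OO day 0, 6.07 and 5.54 CPM in CCl4 day 0, 4.42, 3.73 and 5.06 CPM in libraries 5, 6 and 12, and 7.9 and 10.02 CPM in CCl4 chow. Lig1 was at 1.65 and 2.16 CPM in OO day 0, 3.07 and 2.97 CPM in CCl4 day 0, 4.23, 3.92 and 4.43 CPM in libraries 5, 6 and 12, and 6.44 and 6.77 CPM in CCl4 chow. Both CCl4 chow libraries exceeded the OO range for Lig1 too. Pcna was at 24.2 and 26.99 CPM in OO day 0, 32 and 29.6 CPM in CCl4 day 0, 30.6, 33.2 and 24.7 CPM in libraries 5, 6 and 12, and 24.5 and 35.3 CPM in CCl4 chow. Rrm2 was at 2.57 and 2.63 CPM in OO day 0, 2.63 and 2.57 CPM in CCl4 day 0, 5.46, 3.96 and 3.56 CPM in libraries 5, 6 and 12, and 7.39 and 9.29 CPM in CCl4 chow. Pcna passed the OO range in library 17 alone, whereas Rrm2 did so in both CCl4 chow libraries. Tyms was at 5.6 and 5.35 CPM in OO day 0, 7.83 and 5.64 CPM in CCl4 day 0, 6.76, 7.62 and 5.14 CPM in libraries 5, 6 and 12, and 7.75 and 10.95 CPM in CCl4 chow. Tk1 was at 10.4 and 14.6 CPM in OO day 0, 29.7 and 30.4 CPM in CCl4 day 0, 15.4, 26.4 and 11.9 CPM in libraries 5, 6 and 12, and 16.8 and 17.8 CPM in CCl4 chow. Tyms was above the OO range in library 17, and Tk1 in neither chow library. Ccne1 was at 0.642 and 0.639 CPM in OO day 0, 0.626 and 0.494 CPM in CCl4 day 0, 1.3, 1.7 and 0.711 CPM in libraries 5, 6 and 12, and 1.1 and 1.53 CPM in CCl4 chow. Ccne2 was at 1.38 and 1.28 CPM in OO day 0, 1.44 and 1.29 CPM in CCl4 day 0, 2.15, 1.28 and 1.58 CPM in libraries 5, 6 and 12, and 0.878 and 2.99 CPM in CCl4 chow. Ccne1 stayed inside the OO range with CCl4 and chow, and Ccne2 was below it in library 16 and above it in library 17. E2f1 was at 2.11 and 2.71 CPM in OO day 0, 3.01 and 1.88 CPM in CCl4 day 0, 2.93, 3.92 and 2.92 CPM in libraries 5, 6 and 12, and 4.39 and 3.65 CPM in CCl4 chow. Uhrf1 was at 0.642 and 0.559 CPM in OO day 0, 2.82 and 1.19 CPM in CCl4 day 0, 1.11, 2.07 and 1.9 CPM in libraries 5, 6 and 12, and 4.02 and 6.64 CPM in CCl4 chow. E2f1 passed the OO range in library 16 alone, and Uhrf1 in both CCl4 chow libraries and in CCl4 day 0 library 3.

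CCl4 without ethanol gave 1 call. Against OO chow, Gins2 was called higher at 2.74 ± 0.59 (SE, adjusted p = 0.0384), from 2.85 and 3.85 CPM in libraries 16 and 17 against 0.39 and 0.632 CPM in libraries 5 and 12. No member was called lower. Of all genes, 1.73% were called higher and 0.467% lower. The call was lost in the fit without libraries 6 and 12, and whenever library 5, 12, 16 or 17 was left out. The estimate was positive for 37 members, with a median of 0.51 against −0.0025 over all genes tested. Mcm5 was at 9.14 and 12.3 CPM in the CCl4 chow libraries and 3.77 and 3.87 CPM in the OO chow libraries, with a log2 difference of 1.49 ± 0.54 (SE, adjusted p = 0.201). Mcm6 was at 18.2 and 28.3 CPM and 7.35 and 9.17 CPM, 2.84-fold apart (adjusted p = 0.238). Neither gene overlapped between these groups, as was true of 23 members on the higher side and of 22.2% of all genes. Library 17 had 28 members above every OO library and library 16 had 19, where the shares over all genes were 20.0% and 20.6%.

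Ethanol against chow within the CCl4 arm called no member, by an adjusted p under 0.05 in edgeR, and 3 had an unadjusted p under 0.05. DESeq2 also called 0. Over all genes 0.501% were called higher and 0.765% lower. The estimate was positive for 39 of 42 members, with a median of 0.38. Ccne1 had the largest positive difference, 1.37 ± 0.54 (SE, adjusted p = 0.335), from 1.1 and 1.53 CPM with chow to 3.71, 1.04 and 5.56 CPM with ethanol. Rrm2 differed by 1.01 ± 0.58 (SE, adjusted p = 0.56), from 7.39 and 9.29 CPM to 15.3, 5.33 and 30.2 CPM. In both genes library 19 was below both chow libraries. Without library 19, 2 members were called. 

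In OO livers no member differed detectably between ethanol and chow. None was called by edgeR or DESeq2, 0 had an unadjusted p under 0.05, and 22 of 42 estimates were positive with a median of 0.01. Over all genes 2.81% were called higher and 2.12% lower. Lig1 had the smallest adjusted p, 0.29, with 2.77, 2.51 and 1.68 CPM under ethanol and 4.23 and 4.43 CPM under chow. Cdt1 was at 0.892, 0.94 and 0.62 CPM and 1.69 and 1.58 CPM, a difference of -0.98 ± 0.50 (SE, adjusted p = 0.302). The test of whether the ethanol difference depended on CCl4 called 0 members in edgeR and in DESeq2, with 2 at an unadjusted p under 0.05, against 0.142% of all genes in either direction. The median of the 42 interaction estimates was 0.38, and Rrm2 had the largest at 1.74 ± 0.84 (SE, adjusted p = 0.639). A difference of ethanol effects between the arms was therefore not shown for any member.

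Livers with both injuries were also set against OO chow, a comparison that shares its CCl4 libraries with those above. Gins2, Mcm5, Mcm6, Tyms and Uhrf1 were called higher and Mcm10 lower, where 6.44% of all genes were called higher and 4.35% lower. The log2 changes were 2.78 ± 0.56 (SE) for Gins2, 1.99 ± 0.51 for Mcm5, 2.13 ± 0.57 for Mcm6, 0.99 ± 0.29 for Tyms and 2.93 ± 0.85 for Uhrf1. Tyms was at 6.76 and 5.14 CPM in the OO chow libraries and 12.95, 7.54 and 14.8 CPM in the CCl4 ethanol libraries. Estimates were positive for 40 of 42 members with a median of 0.84. The 6 calls became 1 without library 5, 2 without library 12, 18 or 20 and in the fit without libraries 6 and 12, and 24 without library 19.

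CCl4 pretreatment alone, read at day 0, called no member, where 0.947% of all genes were called higher and 1.11% lower. By edgeR 2 members had an unadjusted p under 0.05, and DESeq2 called 1, Tk1. Tk1 was at 10.4 and 14.6 CPM in OO and 29.7 and 30.4 CPM in CCl4, the highest Tk1 levels of the 15 libraries, with a log2 difference of 1.26 ± 0.29 (SE, adjusted p = 0.0526). Afmid lies on the opposite strand and shares 83 exon bases with Tk1, or 1.6% of the exon bases of Tk1. Its level was 50.02 and 73.7 CPM in OO and 149 and 149 CPM in CCl4 at day 0, a log2 difference of 1.27 with an adjusted p of 0.0124. How many reads Tk1 owes to this neighbour was not tested. Mcm5 was at 2.66 and 1.84 CPM and 5.01 and 3.86 CPM, and Uhrf1 at 0.642 and 0.559 CPM and 2.82 and 1.19 CPM, neither of them called (adjusted p = 0.439 and 0.443). Rrm2 was at 2.57 and 2.63 CPM in OO and 2.63 and 2.57 CPM in CCl4. The median over the members was 0.28. Above all OO libraries lay 12 members (28.6%) in library 3 and 4 members (9.52%) in library 4. The shares over all genes were 12.8% and 12.9%. In library 4, 4 members also lay below all OO libraries.

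Some replication genes were higher in CCl4 livers under ethanol at day 20 than at the end of pretreatment. Against CCl4 day 0, 9 members were called higher and 2 lower, with 11.6% and 9.11% of all genes called. Those higher were Gins2, Ccne1, Rrm2, Mcm5, Mcm2, Cdc6, Mcm4, Rrm1 and Fen1, and those lower Mcm10 and Tk1. Ccne1 went from 0.626 and 0.494 CPM at day 0 to 3.71, 1.04 and 5.56 CPM, 2.56 ± 0.62 (SE, adjusted p = 0.0125). Rrm2 went from 2.63 and 2.57 CPM to 15.3, 5.33 and 30.2 CPM, 2.69 ± 0.65 (SE, adjusted p = 0.013). Every later library was above both day 0 libraries for these genes. Mcm2 went from 5.51 and 5.44 CPM to 21.6, 6.31 and 27.1 CPM, 1.74 ± 0.51 (SE, adjusted p = 0.0311), and Cdc6 from 0.564 and 0.396 CPM to 3.59, 0.858 and 4.63 CPM, 2.59 ± 0.77 (SE, adjusted p = 0.0329). Tk1 was called lower at -0.92 ± 0.26 (SE, adjusted p = 0.0258), and the change of its neighbour Afmid was −1.74. The change of the CCl4 difference between day 0 and ethanol at day 20, a contrast added after the data were seen, called 1 member, Tk1, at -1.53 ± 0.38 (SE, adjusted p = 0.0312), against 7.93% of all genes. The 11 calls became 1 without library 3 or 4, 4 without library 18, 5 without library 20 and 25 without library 19.

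In the CCl4 chow arm Gins2 was the 1 member called against CCl4 day 0, where 7.27% of all genes were called higher and 4.2% lower. Gins2 was at 0.689 and 0.791 CPM at day 0 and 2.85 and 3.85 CPM at day 20, 2.18 ± 0.57 (SE, adjusted p = 0.0316), a call lost without library 3, 4, 16 or 17. The median over members was 0.53. Mcm10 stood at -1.08 ± 0.37 (SE, adjusted p = 0.0832). In the OO arm no member was called between chow and day 0 by edgeR or DESeq2, with 1 at an unadjusted p under 0.05, 0.298% of all genes called higher and 0.0812% lower.

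Of 62 other genes of the pathway, taken from general knowledge, 17 were called higher and 4 lower between CCl4 and OO under ethanol, where the shares over all genes were 12.7% and 11%. Ccna2, the cyclin of S phase and G2, was at 1.19, 1.25 and 1.68 CPM in the OO ethanol libraries and 37.8, 12.4 and 29.5 CPM in the CCl4 ethanol libraries. In the CCl4 chow libraries Ccna2 was at 18.5 and 21.2 CPM, and its log2 changes were 4.28 ± 0.39 (SE, adjusted p = 7.09e-05) under ethanol and 2.77 ± 0.43 (SE, adjusted p = 0.0109) under chow. Every CCl4 library of day 20, library 19 included, was above every OO library for Ccna2. Ccnd1, the cyclin that starts G1 progression, was at 25.2, 37.1 and 26.5 CPM against 162, 68.2 and 124 CPM, 1.99 ± 0.27 (SE, adjusted p = 0.000524). Cdkn1a, which encodes the inhibitor p21, was at 2.97, 1.15 and 0.531 CPM against 10.2, 6.19 and 8.08 CPM, and it was called higher at 2.45 ± 0.49 (SE, adjusted p = 0.00463). OO chow library 12 held 15.5 CPM of Cdkn1a and CCl4 chow libraries 25.7 and 9.96 CPM. E2f8, an E2F factor that represses such genes, was at 37.9, 18.9 and 26.8 CPM against 6.46, 6.07 and 7.41 CPM. E2f8 was called lower at -2.07 ± 0.23 (SE, adjusted p = 0.000154), the same direction as Mcm10.

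In the other comparisons the list of 62 gave fewer calls. Ccna2 alone was called under chow, where 1.73% of all genes were called higher. That call was lost without library 5, at a log2 change of 2.61. Ccna2 and Cdkn1a were called between CCl4 chow at day 20 and CCl4 day 0, where 7.27% of all genes were called higher, Cdkn1a at 3.37 ± 0.60 (SE, adjusted p = 0.00602). Both calls were lost without library 3 or without library 4. The log2 changes were then 2.15 and 2.52 for Ccna2 and 3.16 and 3.56 for Cdkn1a. Against OO chow, CCl4 with ethanol had 7 higher and 2 lower, with 6.44% and 4.35% of all genes called, led by Ccna2 at 3.19, Rbl2, a pocket protein that holds E2F in check, at -0.64, and Dbf4, which activates the origin-firing kinase Cdc7, at 1.71. Against CCl4 day 0 it had 13 higher and 1 lower, with 11.6% and 9.11% of all genes called, led by Ccna2 at 2.76, Rbl2 at -0.71 and Rbl1, a related pocket protein, at 1.38. CCl4 at day 0, ethanol in either arm, OO chow against day 0 and the interaction gave 0 calls in edgeR. An unadjusted p under 0.05 was found for 6 genes at day 0, 6 for ethanol in CCl4, 11 for ethanol in OO, 3 for OO chow and 8 for the interaction.

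A list of 28 mitosis genes, taken as markers of dividing cells of any type, was read in the same libraries. Under ethanol 27 of 28 mitosis genes were called higher in CCl4 than in OO, and 1, Pttg1, lower, with a median log2 change of 4.34 against 0.92 for the replication genes. The shares over all genes were 12.7% higher and 11% lower. Under chow 22 of 28 were called higher, against 1.73% of all genes, with a median of 2.77 against 0.51. Of the mitosis genes only Mki67 and Cdk1 were followed in the alternative fits. Without library 5 both lost the chow call, at log2 changes of 2.60 and 2.15. Cdk1 also lost it without library 12, at 2.93. At day 0 the medians were 1.99 and 0.28, with 1 mitosis gene called higher, against 0.947% of all genes. Mki67, which coats mitotic chromosomes, was at 3.58 and 3.19 CPM in OO day 0, 19.5 and 13.3 CPM in CCl4 day 0, 6.84, 6.63 and 4.34 CPM in OO ethanol, 117 and 121 CPM in CCl4 chow and 199, 55.9 and 170 CPM in CCl4 ethanol libraries. Cdk1, the kinase of mitotic entry, was at 0.892, 0.94 and 1.59 CPM in OO ethanol, 13.5 and 18.1 CPM in CCl4 chow and 35.9, 10.4 and 30.4 CPM in CCl4 ethanol. Over the 28 mitosis genes, OO libraries 5, 6 and 12 summed to 75.0, 61.8 and 98.2 CPM. CCl4 day 0 libraries 3 and 4 summed to 129 and 98.8 CPM, so library 12 was close to library 4. Library 19 was the lowest of its group for all 28 mitosis genes, yet 26 of them there were above every OO library, as against 6 of the 42 replication genes. The summed CPM of the 28 mitosis genes divided by that of the 42 replication genes was 0.133 to 0.303 in OO libraries, 0.29 and 0.347 in CCl4 day 0, 1.19 and 1.40 in CCl4 chow and 0.967 to 1.81 in CCl4 ethanol. Abundant genes weigh most in these sums. The helicase activation sum, Mcm10 included, was 84.5 and 52.7 CPM in OO day 0 and 42.1, 26.9 and 46.0 CPM in CCl4 ethanol. For the licensing genes these sums were 51.1 and 42.5 CPM, and 140, 61.4 and 206 CPM. A difference between the 2 lists was not tested.

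**Figure D4:**
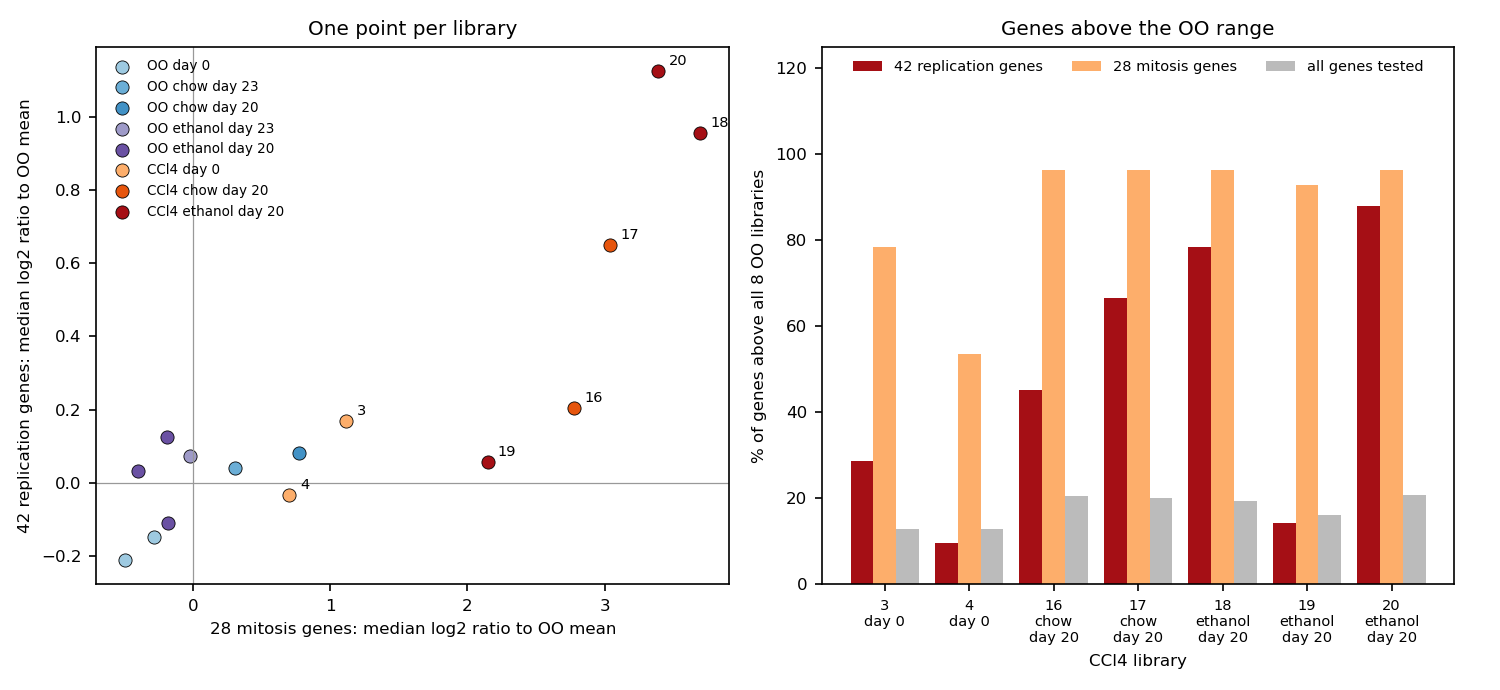
On the left each point is a library, with the median log2 ratio to the OO mean of 28 mitosis genes on the x axis and of the 42 replication genes on the y axis. On the right bars give the share of replication genes, mitosis genes and all genes tested above all 8 OO libraries in each CCl4 library. Library 19 lies at 2.15 on the mitosis axis but 0.06 on the replication axis, and its bars are 92.9% and 14.3%.

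Markers of other liver cells differed between the arms in the same libraries. Macrophage markers, 11 genes with none at 0, summed to 714 to 969 CPM in OO ethanol, 1475 and 2045 CPM in CCl4 chow and 1910 to 2310 CPM in CCl4 ethanol. Under ethanol Timd4 was called lower in CCl4, at -1.26 on the log2 scale (edgeR adjusted p = 0.00446). Clec4f and Marco were not called, and the others of the list were called higher. OO chow library 12 held 1931 CPM of the macrophage markers. Its median log2 ratio to the OO mean was 0.08 for the replication genes and 0.77 for the mitosis genes, and it also held pancreatic transcripts. Stellate cell and fibroblast markers, 10 genes with none at 0, summed to 471 to 648 CPM in OO ethanol and 1255 to 1808 CPM in CCl4 ethanol. Of these, Acta2, Des and Lrat were not called, and the others were called higher. Cholangiocyte markers, 6 genes, summed to 46.0 to 75.1 CPM in OO ethanol, with 1 gene at 0 in 1 library, and to 387 to 597 CPM in CCl4 ethanol. Nearly all of that sum was Spp1, at a mean of 503 CPM in CCl4 ethanol and 55.4 CPM in OO ethanol. Of the other 5 genes, Cftr and Epcam were called higher, at means of 1.122 and 3.58 CPM in CCl4 ethanol, and Krt19, Krt7 and Sox9 were not called. Lymphocyte markers, 10 genes, summed to 33.1 to 38.4 CPM in OO ethanol, again with 1 gene at 0, and to 80.7 to 109 CPM in CCl4 ethanol. Most of that was Ptprc, a gene of all leukocytes, at means of 32.9 and 90.2 CPM, and none of the other 9 genes was called. Neutrophil markers, 6 genes, summed to 12.4 to 24.4 CPM in OO ethanol and 51.9 to 138 CPM in CCl4 ethanol. Endothelial markers overlapped, at 418 to 497 CPM and 398 to 468 CPM, and so did the erythroid sum, at 127 to 267 CPM and 118 to 174 CPM, with up to 3 of 6 genes at 0. Most of the erythroid sum was Tfrc, which was not called, at means of 130 CPM in OO ethanol and 102 CPM in CCl4 ethanol. Alas2 was called lower, at means of 71.2 CPM in OO ethanol and 41.0 CPM in CCl4 ethanol. The part of any of these markers in the changes of replication genes was not tested.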

How the data were processed

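Raw read counts per gene, 1 table per library, were deposited by the authors. Reads were aligned with GSNAP to mm10, and DESeq2 1.12.3 was named, per the submitters' processing notes. Counting program, annotation and strand: not given in the sources used here. Entries for reads given to no gene were dropped before library sizes were summed. Reads given to genes were 41.4% to 53.0% of the reads listed, and reads aligned to several places, 18.1% to 28.8%, were not counted for genes.

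Counts were filtered with filterByExpr, scaled by TMM and fitted in edgeR 4.0.16 (R 4.3.3) with 1 mean for each of 8 groups, leaving 7 residual degrees of freedom. Quasi-likelihood tests were adjusted by Benjamini-Hochberg over 14778 genes, two-sided. The common dispersion was 0.0414. The code was tested on simulated data. No pair of replicate libraries agreed within counting error.

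Named members are the called ones, up to 8 per comparison with the smallest adjusted p, and 15 others whatever their p. Up to 3 called genes of the other pathway list and 5 fixed ones were added. Single cell type markers and overlapping neighbours were named after their values were seen. The members and all lists were chosen with earlier results of these data known. Alternatives were RLE scaling, no filter, 1 CPM in 2 libraries, DESeq2 1.42.0, limma 3.58.1 voom, the same with a random block for lane, fits of the compared libraries, a common OO chow mean, and each library left out. A fit without libraries 6 and 12 and the change of the CCl4 difference from day 0 to ethanol at day 20 were added after the data were seen. Sequences are from RefSeq on GRCm38.p6, and gene positions from GENCODE M21.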

Additional observations from a re-analysis of the deposited data

Results flagged for a closer look

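Tk1, the thymidine salvage kinase, did not have the same CCl4 difference at day 0 and under ethanol at day 20. Its log2 difference between CCl4 and OO was 1.26 ± 0.29 (SE) at day 0 and -0.27 ± 0.24 (SE) under ethanol at day 20. The difference between these was -1.53 ± 0.38 (SE), with an adjusted p of 0.0312 in edgeR. Time, ethanol, diet and the lower CCl4 dose change together in this contrast and cannot be told apart. The contrast was chosen after the data were seen, and Tk1 was the 1 member called in it, where 7.93% of all genes were called in either direction. Both CCl4 libraries of day 0 were above every OO library, and at day 20 the CCl4 and OO ethanol libraries overlapped. Afmid, on the opposite strand, went from a CCl4 difference of 1.27 at day 0 to one of −1.02 under ethanol, and its part in the Tk1 counts was not tested.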

How the results depend on the processing

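Numbers of members called are given here. RLE scaling and a filter of 1 CPM in 2 libraries kept every number within 1.5 times. Without a filter the number was 1 for CCl4 at day 0, 2 for CCl4 chow against day 0 and 12 for CCl4 plus ethanol against OO chow, and with DESeq2 it was 1, 2 and 15. Limma-voom gave 10 for CCl4 under ethanol, 0 under chow, 2 for CCl4 plus ethanol against OO chow, 0 for CCl4 chow against day 0 and 3 for CCl4 with ethanol against day 0. With lane as a random block these were 12, 0, 2, 0 and 3, at a correlation within lanes of −0.08. Fits of the compared libraries alone gave 6 at day 0, 12 under ethanol, 7 under chow, 1 for CCl4 plus ethanol against OO chow, 10 and 6 for CCl4 chow and CCl4 with ethanol against day 0, and 1 for OO chow against day 0. A common OO chow mean gave 10 for CCl4 plus ethanol against OO chow, and the fit without libraries 6 and 12 gave 2 there and 0 under chow. Leaving out 1 library at a time gave 8 to 30 under ethanol, 0 under chow in every fit, 0 to 2 for ethanol in CCl4 animals, 1 to 24 for CCl4 plus ethanol against OO chow, 0 for CCl4 chow against day 0 in every fit and 1 to 25 for CCl4 with ethanol against day 0. The causes were not tested. Of 836 values of single genes under an alternative, 610 kept direction and call, 223 lost the call, 3 gained it and 0 changed direction.

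No paired analysis was possible because the groups share no replicate number. Groups of 1 to 3 libraries limit every test, and for genes such as Gins2, with 3 to 16 reads in the OO libraries, counting error is large.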

Other observations

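Library 5 enters the OO chow control of the comparisons, but the pair of day 23 libraries, with ethanol (6) and with chow (5), was not tested against each other, and its values are given as a description. The median member was at a log2 ratio to the OO mean of 0.07 in library 6 and 0.04 in library 5. Tk1 was at 26.4 CPM with ethanol and 15.4 CPM with chow. Chaf1b was at 4.3 CPM and 2.67 CPM, and its level in library 6 was the highest among the OO libraries. Uhrf1 was at 2.07 CPM and 1.11 CPM, and Cdc45 at 0.905 CPM and 1.82 CPM. Library 6 is 1 of the 2 libraries with pancreatic transcripts.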
